A study of Mus musculus with 18 samples.

Results

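Endothelium-enriched cells from cultured pieces of the mouse aorta-gonad-mesonephros (AGM) region were compared with and without cyclopamine, a plant alkaloid that blocks the Hedgehog signal transducer Smoothened. The comparison uses 4 of the 18 libraries of the series, chosen by their titles: 2 endothelial (EC) libraries from explants cultured with cyclopamine and 2 from explants cultured without it. All groups came from E11 embryos of the C57BL6 BRE-GFP reporter strain, whose green fluorescent protein reports BMP signalling, and both kinds of explant were kept in medium containing BMP and Hedgehog. EC were sorted as CD31 positive and c-Kit negative and divided into a BRE-GFP negative and a BRE-GFP positive fraction, each sequenced as 1 library per culture. The other libraries are EC from fresh AGM (2), and 2 further sorted populations, hematopoietic progenitor and stem cells (HPSC) and mesenchymal cells (MC), in the same fractions and cultures. For the dose of cyclopamine, the length of culture and the number of embryos the sources used here give no value. Nothing in the labels says that the libraries came from separate embryos or sorts, so the p-values measure only the spread between these libraries, which may be technical. With 1 library per combination, that spread is how culture effects differ between the 2 BRE-GFP fractions of a population, pooled over EC, HPSC and MC. It is not a spread between repeat libraries.

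Hedgehog ligands bind Patched receptors and thereby release Smoothened, which lets GLI factors switch on target genes such as Gli1, Ptch1 and Hhip. In the AGM, endothelial cells of the aorta give rise to hematopoietic cells, and both BMP and Hedgehog signals from the surrounding tissue are known to act there. BMP ligands signal through type I and type II receptors to SMAD1, SMAD5 and SMAD9, with the Id genes as common targets.

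The libraries differed in more than the treatment. Gene counts were 5507440 and 14825529 without and 7855180 and 13109149 with cyclopamine (negative, then positive fraction). Genes with at least 1 count numbered 14010 and 18331 without and 11006 and 14460 with cyclopamine, and the share of once-placed reads at no annotated feature was 42.9% and 49.4% without and 27.9% and 24.6% with it. Of the 16231 genes tested, 5356 had 0 counts in the cyclopamine negative library and 2643 in the explant negative library, against 2184 and 179 in the positive fraction. Among genes of at least 20 CPM (a gene's counts scaled to one common library total) in the explant negative library, 541 of 7717 had 0 counts in the cyclopamine negative library, and in the positive fraction 5 of 7490 did. The part of these differences in the results was not tested.

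The CD31 gate could be followed in Pecam1, which encodes CD31 (chromosome 11, 106654213 to 106715281, RefSeq on GRCm38.p6). It stood at 288 and 1459 CPM without and at 482 and 419 CPM with cyclopamine, so the fractions differed widely without the compound and little with it. Kit, the receptor gated out, stood at 148 and 199 CPM without and 107 and 74.1 CPM with cyclopamine, below the 449.9 to 1135 CPM of the HPSC explant and cyclopamine libraries. Markers of other cells were abundant beside the endothelial ones in both fractions. In the negative fraction, the summed level of 24 pan-endothelial genes was 1571 CPM without and 2069 CPM with cyclopamine, against 7871 and 2455 CPM in the positive fraction, while 24 macrophage and monocyte genes summed to 8138 and 5091 CPM in the negative and 3539 and 3332 CPM in the positive fraction. The endothelial sum was thus below the macrophage sum in both negative libraries and in the cyclopamine positive library, where 19 mesenchymal genes summed to 7762 CPM, and above it in the explant positive library. In such sorted bulk samples, fewer cells of a type and less RNA per cell cannot be told apart.

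No gene passed the test for a cyclopamine effect in EC. In the edgeR quasi-likelihood fit on all 18 libraries, 0 of 16231 genes (0%) had a Benjamini-Hochberg adjusted p under 0.05 and the lowest adjusted p was 0.922. At an unadjusted p under 0.05 there were 681 genes, 51 higher (0.314% of those tested) and 630 lower (3.88%) with cyclopamine. DESeq2 called 134 genes, 7 higher and 127 lower, and limma-voom called 2, both lower. Without the EC cyclopamine positive library edgeR called 185 genes, 184 of them lower, which then rest on the 1 remaining cyclopamine library. All differences below are therefore values in 4 libraries and not called changes, and "higher" or "lower" always means with cyclopamine relative to the explant without it.

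Within each fraction the 2 libraries were compared by the log2 ratio of CPM + 5. Over all tested genes the median ratio was -0.04 in the negative and -0.08 in the positive fraction, with SDs of 1.35 and 0.67. More than 2-fold higher in both fractions were 145 genes (0.893%), and more than 2-fold lower in both were 350 (2.16%). Another 159 genes were more than 2-fold higher in the negative and lower in the positive fraction, and 317 the opposite. With each fraction taken by itself, 2151 genes were more than 2-fold higher and 3967 lower in the negative fraction. In the positive fraction these were 907 and 1116. Across all tested genes the ratios of the 2 fractions had a Pearson correlation of -0.01, and of -0.06 over the 2461 genes with a mean of at least 100 CPM. These are descriptions of 4 libraries, since genes are not replicates. Without regard to size, 17.1% of tested genes were higher and 27.4% lower in both fractions. Both cyclopamine libraries lay above both explant libraries for 10.6% of tested genes and below both for 19%. Counts of list members given below stand beside these shares over all tested genes.

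**Figure D1:**
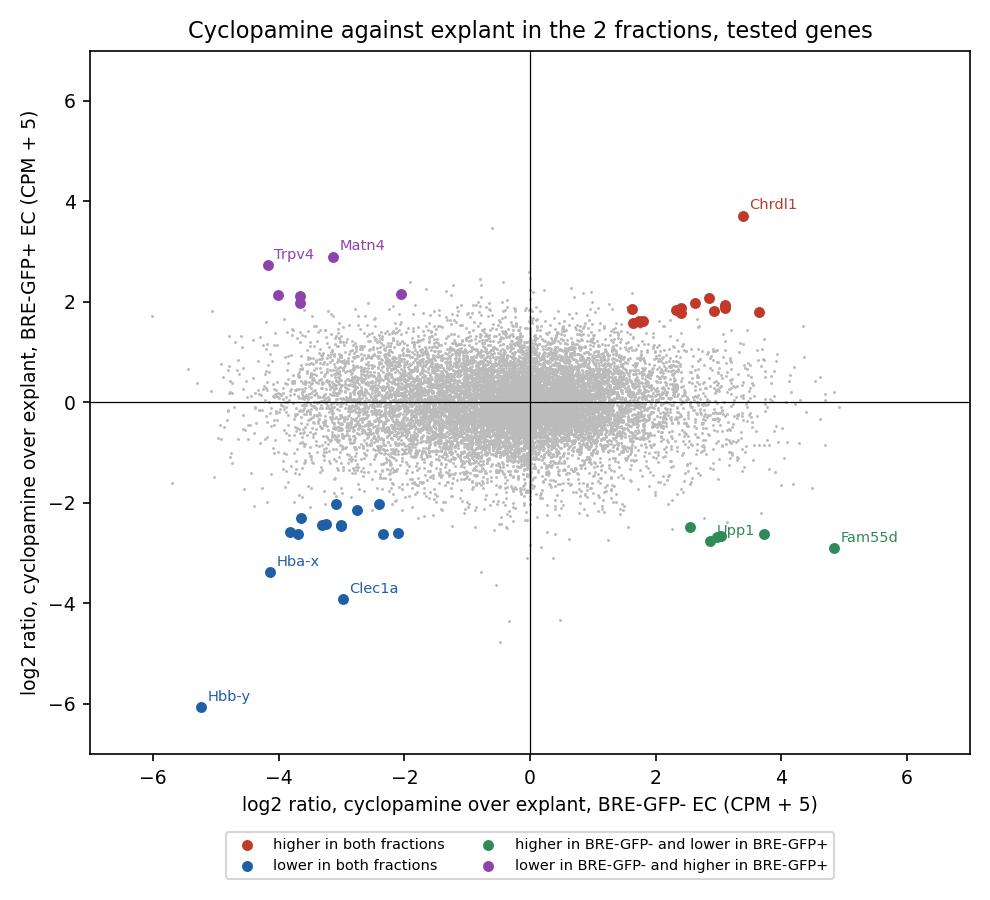
Log2 ratio of cyclopamine over explant (CPM + 5) in BRE-GFP negative EC (x axis) and BRE-GFP positive EC (y axis), 1 grey point per tested gene, with the named genes in colour. The cloud has no slope (correlation -0.01), while Hbb-y, Hba-x and Clec1a lie far down in both fractions and Chrdl1 far up in both.

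Hedgehog target genes did not move as one group. Of 13 tested targets, 5 were lower and 2 higher in both fractions (27.4% and 17.1% over all tested genes), with a median ratio of -0.86 in the negative and 0.34 in the positive fraction. The 3 classical feedback targets were highest in the explant negative library. Ptch1, the receptor that restrains Smoothened (chromosome 13, 63508328 to 63573460), stood at 62.9 and 11.6 CPM without and 29 and 6.47 CPM with cyclopamine, lower in both fractions but with overlapping groups. Hhip, a membrane protein that sequesters the ligands, stood at 79.1 and 16.9 CPM without and at 0 and 5.95 CPM with it, so both cyclopamine libraries lay below both explant libraries. Gli1, the transcription factor that reports pathway activity, stood at 32.9 and 6.59 CPM without and at 1.56 and 9.63 CPM with it. Gli1 was thus lower in the negative fraction only, and its fitted log2 fold change was -1.04 ± 1.83 (SE). Foxf2, a forkhead gene of gut and vessel-associated mesenchyme, stood at 17.4 and 2.96 CPM without and 0 and 0.0753 CPM with cyclopamine, and was the 1 target with an unadjusted p under 0.05 (edgeR, 0.036). In the fresh EC libraries Gli1 stood at 3.06 and 0.44 CPM and Hhip at 6.24 and 6.23 CPM, below the explant value in each fraction. Igf1 and Sfrp1, the growth factor and the Wnt-binding protein on the list, were the targets that were higher in both fractions, Sfrp1 at 131 and 100.3 CPM without and 290.2 and 163 CPM with cyclopamine.

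Upstream components of the pathway were mostly low. Of the ligands, Shh was scarce, at or under 0.471 CPM in all 4 libraries. Ihh was listed at 0 in both negative libraries, but in the positive fraction it stood at 7.33 CPM without and 64 CPM with cyclopamine. Smo, which encodes the target of cyclopamine (chromosome 6, 29735497 to 29761366), stood at 19.9 and 18.8 CPM without and 40.3 and 41.9 CPM with it. Both cyclopamine libraries were about the same height and above both explant libraries, with a fitted log2 fold change of 1.09 ± 1.12 (SE; edgeR unadjusted p = 0.35). Boc, a coreceptor for the ligands, stood at 21.3 and 15.5 CPM without and 49.1 and 66 CPM with cyclopamine. Over the 16 tested ligands, receptors and transducers, these were the only 2 that were higher in both fractions, 1 was lower in both (Sufu), and 0 had an unadjusted p under 0.05 (edgeR).

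Embryonic globins were lower with cyclopamine in both fractions, and Hbb-y had the widest ratio of the genes named for both. Hbb-y, the embryonic beta-like globin (chromosome 7, 103851754 to 103853207), stood at 409 and 659.5 CPM without and at 5.98 and 4.97 CPM with cyclopamine. Hba-x, the embryonic alpha-like globin (chromosome 11, 32276600 to 32278116), stood at 92.4 and 111 CPM without and at 0.52 and 6.17 CPM with it. Hbb-bh1, the other embryonic beta-like globin (chromosome 7, 103841638 to 103843162), stood at 59.5 and 28 CPM without and at 0 and 0.376 CPM with it. For all 3 globins both cyclopamine libraries were far below both explant libraries, and the fresh EC libraries were higher still, with Hbb-y at 2089.9 and 1102 CPM. The fitted log2 fold change of Hbb-y was -6.63 ± 1.34 (SE), with an unadjusted p of 0.00023 and an adjusted p of 0.922 in edgeR. With a fit on the 6 EC libraries alone its adjusted p was 0.0155, and with the 4 explant and cyclopamine EC libraries alone it was 0.0159, the single gene called in each of these edgeR fits.

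The stretches just before the start sites of Hbb-y and Hba-x are shown because these embryonic globins headed the ranking of genes lower in both fractions. They are the 250 bases before the RefSeq start (GRCm38.p6), 5′ to 3′ on the gene's strand, with capitals for CACCC and CCAAT on either strand, short motifs known from globin promoters. Hbb-y lies on the minus strand (chr7:103853208-103853457) and Hba-x on the plus strand (chr11:32276350-32276599).
Hbb-y: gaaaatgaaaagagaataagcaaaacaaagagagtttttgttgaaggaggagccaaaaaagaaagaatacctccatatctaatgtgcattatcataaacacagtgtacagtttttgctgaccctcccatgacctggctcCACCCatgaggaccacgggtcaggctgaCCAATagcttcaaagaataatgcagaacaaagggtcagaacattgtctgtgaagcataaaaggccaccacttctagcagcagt
Hba-x: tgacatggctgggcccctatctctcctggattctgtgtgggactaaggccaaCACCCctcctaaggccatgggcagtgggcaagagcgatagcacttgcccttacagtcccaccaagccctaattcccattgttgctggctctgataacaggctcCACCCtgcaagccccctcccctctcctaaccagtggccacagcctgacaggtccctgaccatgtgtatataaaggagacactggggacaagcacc
The Hbb-y window holds 1 match to CACCC and 1 to CCAAT, and the Hba-x window holds 2 matches to the former and 0 to the latter. Of the 27025 windows of this length, 51.3% hold CACCC and 34.5% hold CCAAT. The only form of the GATA motif searched, AGATAA on either strand, is in neither window and in 10.3% of all. Another form, TGATAA, does stand in the Hba-x window and, on the other strand, in the Hbb-y window, and was not counted over all windows. GACCACCCA, the core letters bound by GLI factors, is in neither of them, nor in the windows of Ptch1, Hhip or Foxf2, and in 0.211% of all.

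Other red cell genes differed less evenly. Of 14 tested erythroid genes, 9 were lower and 1 higher in both fractions, with medians of -1.19 and -0.86. Of the 14, 5 were lower by more than 2-fold in both, and 5 had an unadjusted p under 0.05 in edgeR, all lower. Over all tested genes 27.4% were lower in both, 2.16% by more than 2-fold, and 3.88% were lower at that p. Besides the globins these were Slc4a1, the red cell anion exchanger, at 7.82 and 6.12 CPM without and 0 and 0.0753 CPM with cyclopamine, and Rhag, at 5.15 and 9.28 CPM without and 0 and 0.376 CPM with it. Alas2, the erythroid heme synthesis enzyme, was 15.8 and 22.5 CPM without and 0 and 13.4 CPM with it. Epor, the erythropoietin receptor, went the other way, at 0.356 and 3.23 CPM without and 16.6 and 5.87 CPM with cyclopamine. The summed level of the 16 matched erythroid genes, embryonic globins included, was 734 and 934 CPM without and 119 and 59.8 CPM with cyclopamine. Hbb-y alone made up 409 and 659.5 CPM of this sum without and 5.98 and 4.97 CPM with it. Adult globin genes were at or under 0.65 CPM in all 4 libraries, a level that their near-identical copies make uncertain because reads placed more than once were not counted.

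**Figure D2:**
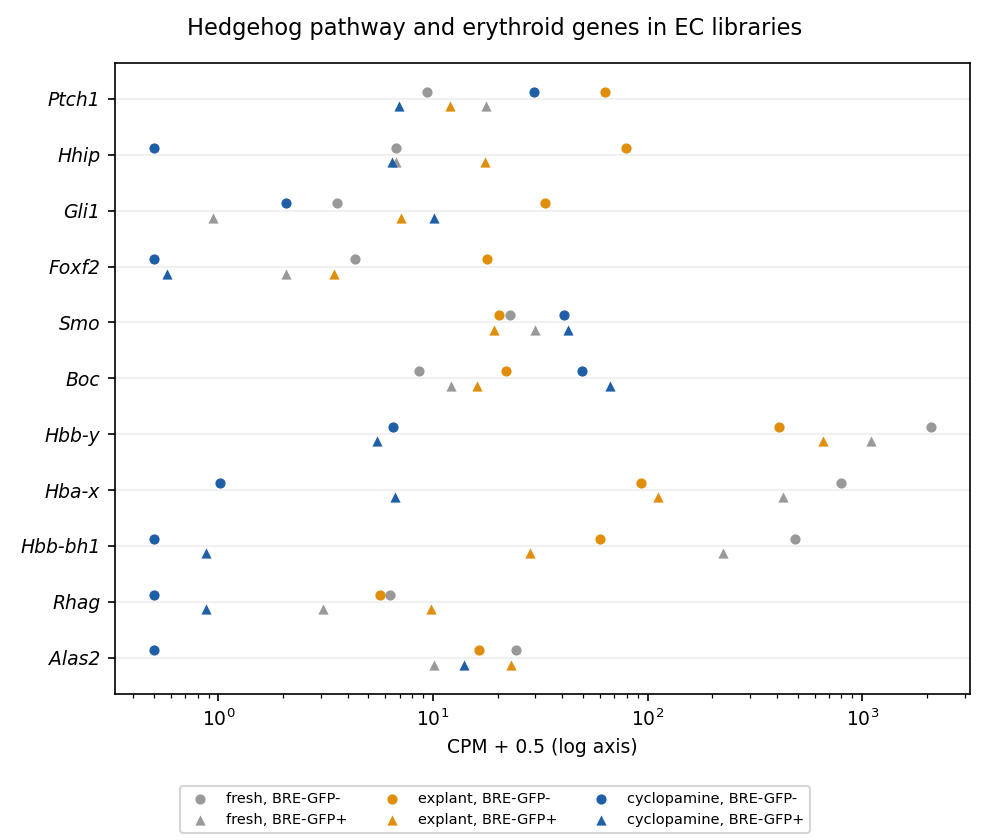
CPM + 0.5 on a log axis for 6 Hedgehog pathway and 5 erythroid genes in the 6 EC libraries (colour for culture, circles for BRE-GFP negative and triangles for positive). The 3 embryonic globins are separated by culture in both fractions, whereas Gli1 is lower with cyclopamine in the negative fraction only and Smo and Boc are higher in both.

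Endothelial genes differed between cultures mainly in the positive fraction. Of 24 pan-endothelial genes, 22 were lower there, 20 by more than 2-fold, with a median ratio of -1.38. Over all genes, 1116 of 16231 tested were lower by more than 2-fold in that fraction. In the negative fraction 13 were lower and 11 higher, with a median of -0.06. In all, 11 were lower in both fractions, 4 of them by more than 2-fold, and 0 were higher in both. Over all tested genes these shares were 27.4%, 2.16% and 17.1%. Flt1, a VEGF receptor, stood at 28.3 and 127 CPM without and 37.8 and 10.4 CPM with cyclopamine, so it was lower in the positive fraction and not in the negative one. Emcn, a sialomucin of venous and capillary endothelium, stood at 59.7 and 727 CPM without and 56.9 and 156 CPM with it. Ecscr, an endothelial membrane protein, stood at 67.4 and 904 CPM without and 209 and 157 CPM with it. S1pr1, the sphingosine 1-phosphate receptor, stood at 59.5 and 474 CPM without and 141 and 101 CPM with it. In each of these the positive fraction was several times above the negative one without the compound. With it the fractions of Emcn, Ecscr and S1pr1 were closer together, while those of Flt1 stayed apart in reversed order. Cdh5, which encodes VE-cadherin, stood at 103 and 485 CPM without and 98.8 and 178 CPM with cyclopamine. Kdr, the main VEGF receptor, stood at 100.1 and 325 CPM without and 178 and 135 CPM with it. Cldn5, a tight junction gene, and Erg, an ETS factor, were the 2 that were not lower in the positive fraction.

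The 4 pan-endothelial genes more than 2-fold lower in both fractions were Clec14a, Tek, Robo4 and Sox7. Clec14a, a C-type lectin of endothelium (chromosome 12, 58264720 to 58269258), stood at 43.9 and 127 CPM without and 0.13 and 19.7 CPM with cyclopamine. Tek, the angiopoietin receptor, stood at 55.5 and 103 CPM without and 0.39 and 44.2 CPM with it. Robo4, an endothelial guidance receptor, stood at 67.7 and 169 CPM without and 0.52 and 64.3 CPM with it. Their levels in the cyclopamine negative library, which had the fewest detected genes of the EC libraries, were near 0, and unadjusted p-values in edgeR were 0.011, 0.014 and 0.044. The SoxF factor Sox7 stood at 13.3 and 105 CPM without and 0 and 37.3 CPM with cyclopamine, with overlapping groups and an unadjusted p of 0.08 (edgeR).

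**Figure D3:**
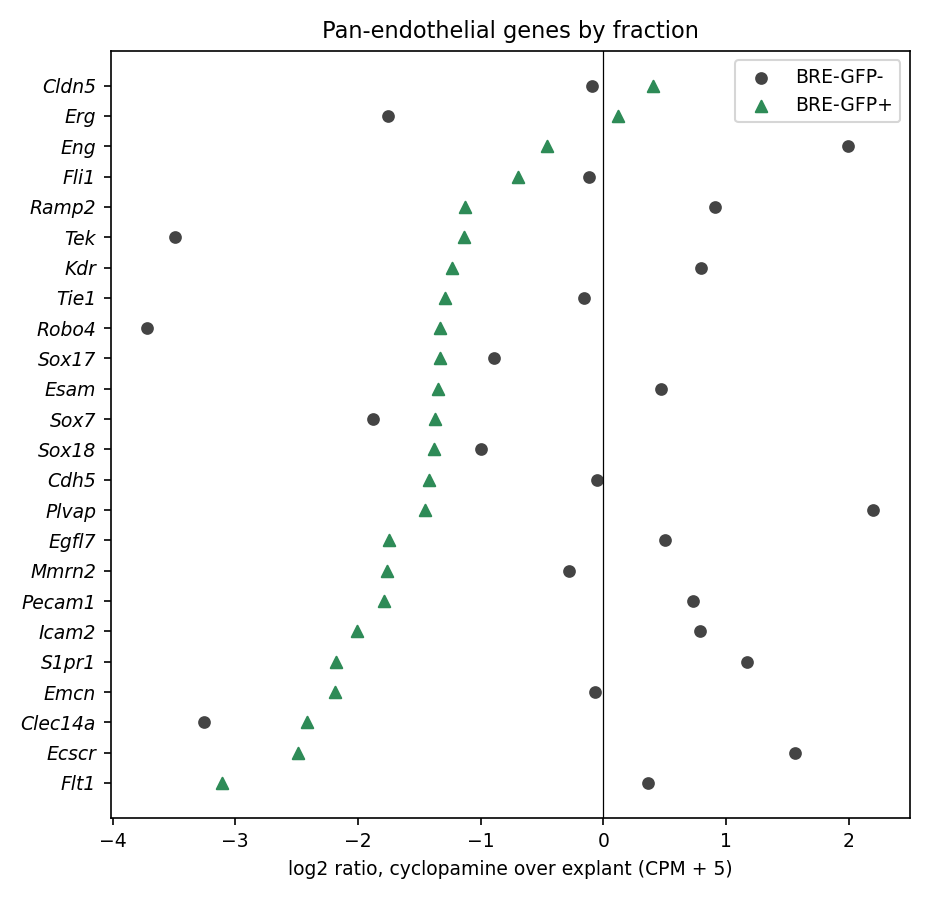
Log2 ratio of cyclopamine over explant (CPM + 5, x axis) for the 24 pan-endothelial genes, BRE-GFP negative EC as circles and BRE-GFP positive EC as triangles. The triangles lie left of 0 for 22 of 24 genes, and the circles fall on both sides (13 left, 11 right).

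Arterial, venous and angiogenic lists each had a lower median in the positive than in the negative fraction, a difference that was not tested. Of 16 arterial genes, 14 were lower in the positive and 6 in the negative fraction, with medians of -0.86 and 0.07. By more than 2-fold these were 6 and 3, against 1116 and 3967 of 16231 tested genes. Unc5b, a netrin receptor of arteries and tip cells, stood at 87.5 and 469 CPM without and 125 and 106 CPM with cyclopamine, while Notch1 was lower in both, at 185 and 198 CPM without and 72.3 and 115 CPM with it. Cxcr4, the receptor for the chemokine Cxcl12, stood at 175 and 207 CPM without and 103 and 43.7 CPM with it. Both cyclopamine libraries were below both explant libraries for Notch1 and Cxcr4, with unadjusted p-values of 0.077 and 0.072 in edgeR. Such a gap was found for 2 of the 16 arterial genes, against 19% over all tested genes.

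Among 14 venous and lymphatic genes, 7 were lower and 3 higher in both fractions, with medians of -0.03 and -1.04. Nr2f2, the factor COUP-TFII that sets venous identity and is also made by mesenchyme, was higher in both, at 214 and 162 CPM without and 458 and 329 CPM with cyclopamine (log2 fold change 1.06 ± 0.47 (SE); edgeR unadjusted p = 0.039). Vwf, which encodes von Willebrand factor, was lower in both, at 94.7 and 123 CPM without and 9.23 and 64 CPM with it (edgeR unadjusted p = 0.01). Stab2, a scavenger receptor of sinusoidal endothelium, stood at 19 and 19.8 CPM without and 0.13 and 3.69 CPM with it (edgeR unadjusted p = 0.018). Aplnr, the apelin receptor, stood at 62.2 and 115 CPM without and 87.8 and 20.3 CPM with it, lower in the positive fraction only.

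The 18 VEGF, angiopoietin and apelin genes had medians of 0.41 in the negative and -1.26 in the positive fraction. Pgf, placental growth factor (chromosome 12, 85166637 to 85177785), was lower in both, at 117 and 488 CPM without and 10.1 and 85.5 CPM with cyclopamine. Fresh EC had 4.71 and 8.93 CPM of Pgf, so within each fraction the explant library stood far above the other cultures (log2 fold change of cyclopamine against explant -2.92 ± 0.91 (SE); edgeR unadjusted p = 0.0064). Angpt2 and Apln, genes of sprouting tip cells, had opposite ratios in the fractions. Angpt2 stood at 28.6 and 284 CPM without and 155 and 45.3 CPM with cyclopamine. Esm1, another tip cell gene, stood at 70.7 and 447 CPM without and 76.8 and 88.4 CPM with it. Vegfa itself was low, at 6.58 and 13.4 CPM without and 12 and 18.4 CPM with it.

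Surface genes of hematopoietic progenitors were lower in both fractions for 15 of 18 members and higher in both for 0. Medians were -0.86 and -0.81, and both cyclopamine libraries lay below both explant libraries for 12 of 18 (19% over all tested genes). An unadjusted p under 0.05 in edgeR was found for 5 of the 18, all lower. Over all tested genes 27.4% were lower and 17.1% higher in both fractions, and 3.88% were lower at that p. Cd34, shared by endothelium and progenitors, stood at 136 and 564 CPM without and 61.9 and 284 CPM with cyclopamine. Procr, the endothelial protein C receptor found on the first stem cells, stood at 3.56 and 75.3 CPM without and 0 and 2.79 CPM with it. Flt3, a cytokine receptor of multipotent progenitors, stood at 18.3 and 4.98 CPM without and 0 and 0.226 CPM with it. These differed in where the gap lay, since Procr was low in the explant negative library already, and unadjusted p-values in edgeR were 0.018, 0.0047 and 0.0083. Slamf1, a lymphocyte and stem cell receptor, had 2.49 and 14.5 CPM without and 0 counts in both libraries with cyclopamine. With both fractions pooled it was at least 78.5-fold lower against a floor of 3 counts over both libraries. The fifth was Spn, the sialophorin CD43. Ptprc, the leukocyte antigen CD45, was lower in the negative fraction (344 and 68 CPM) and not in the positive one (34.5 and 49.8 CPM).

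Hematopoietic transcription factors were lower in the negative fraction, with a median of -0.62, against -0.04 in the positive fraction. Of 20 tested factors, 8 were lower and 3 higher in both. Runx1, required for hematopoietic cells to leave the endothelium, stood at 29.9 and 33.1 CPM without and 3.51 and 38.3 CPM with cyclopamine. Gata2, which acts with Runx1, stood at 5.33 and 21.6 CPM without and 0 and 24.5 CPM with it. Gata1, of red cells and megakaryocytes, was lower in both, at 103 and 61.1 CPM without and 64.6 and 11.1 CPM with it. For Runx1 and Gata2 the lower value lay in the negative fraction, in the EC library with the fewest detected genes, while the positive fraction had ratios of 0.18 and 0.15, and 0 of the 20 factors had an unadjusted p under 0.05 (edgeR). Meis1 was higher in both, at 391 and 155 CPM without and 611 and 311 CPM with cyclopamine.

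Leukocyte genes followed different fractions by lineage. Macrophage and monocyte genes had medians of -1.03 in the negative and -0.19 in the positive fraction, with 20 of 23 tested genes lower in the negative fraction. Of these, 12 were lower there by more than 2-fold, against 3967 of all 16231 tested genes. Csf1r, the macrophage growth factor receptor, stood at 619 and 122 CPM without and 117 and 167 CPM with cyclopamine. Spp1, osteopontin, was one of 2 that were higher in both, at 399 and 288 CPM without and 905 and 528 CPM with it. Granulocyte genes showed the opposite arrangement, with medians of -0.15 and -1.81. S100a8, a granulocyte calcium-binding protein, stood at 358 and 96.3 CPM without and at 283 and 0 CPM with cyclopamine. Ngp, a neutrophil granule protein, stood at 646 and 139 CPM without and 898 and 2.11 CPM with it. Granulocyte transcripts were thus scarce in the cyclopamine positive library, where the 14 genes summed to 71.1 CPM against 640 CPM without cyclopamine, while the negative libraries held 2962 CPM without and 2835 CPM with it. The fresh positive library was low in them too, with S100a8 at 8.80 and Ngp at 7.99 CPM. Mast cell and eosinophil genes summed to 1029.5 and 236 CPM without and 578 and 49.3 CPM with it, with medians of -0.28 and -0.24. Hdc, the histamine-synthesizing enzyme, stood at 93.9 and 33.6 CPM without and 1.69 and 10.1 CPM with it (edgeR unadjusted p = 0.0092). Platelet and megakaryocyte genes had medians of -0.22 and -0.77, and Pf4 stood at 444 and 1316 CPM without and 412 and 645 CPM with cyclopamine. The part of these other blood cells in the progenitor, cytokine and globin values was not tested.

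Cytokine and chemokine genes were mostly lower. Of 20 genes of the TNF, Toll-like receptor and NF-kB response, 12 were lower and 0 higher in both fractions, with medians of -1.40 and -0.68. Ptgs2, the inducible prostaglandin synthase (chromosome 1, 150100031 to 150108234), had 22.2 and 11.2 CPM without and 0 counts in both libraries with cyclopamine. With both fractions pooled it was at least 99.6-fold lower against the floor of 3 counts over both. Tnf stood at 19.4 and 6.72 CPM without and 0 and 0.301 CPM with it, and Il1a at 15.5 and 5.98 CPM without and 0 and 0.0753 CPM with it. Both cytokines were near 0 in both cyclopamine libraries, with unadjusted p-values of 0.019 and 0.0096 in edgeR. Vcam1, an adhesion molecule of activated endothelium, differed in direction, at 60.8 and 68.6 CPM without and 0.13 and 107 CPM with cyclopamine. Of 18 tested chemokines and their receptors, 13 were lower and 1 higher in both, with medians of -1.09 and -0.77. Ccr2, the monocyte receptor for Ccl2, stood at 104 and 8.81 CPM without and 0 and 0.226 CPM with it (edgeR unadjusted p = 0.011), and Cxcr7, a scavenging receptor for Cxcl12, at 79.1 and 317 CPM without and 76.3 and 58.3 CPM with it.

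**Figure D4:**
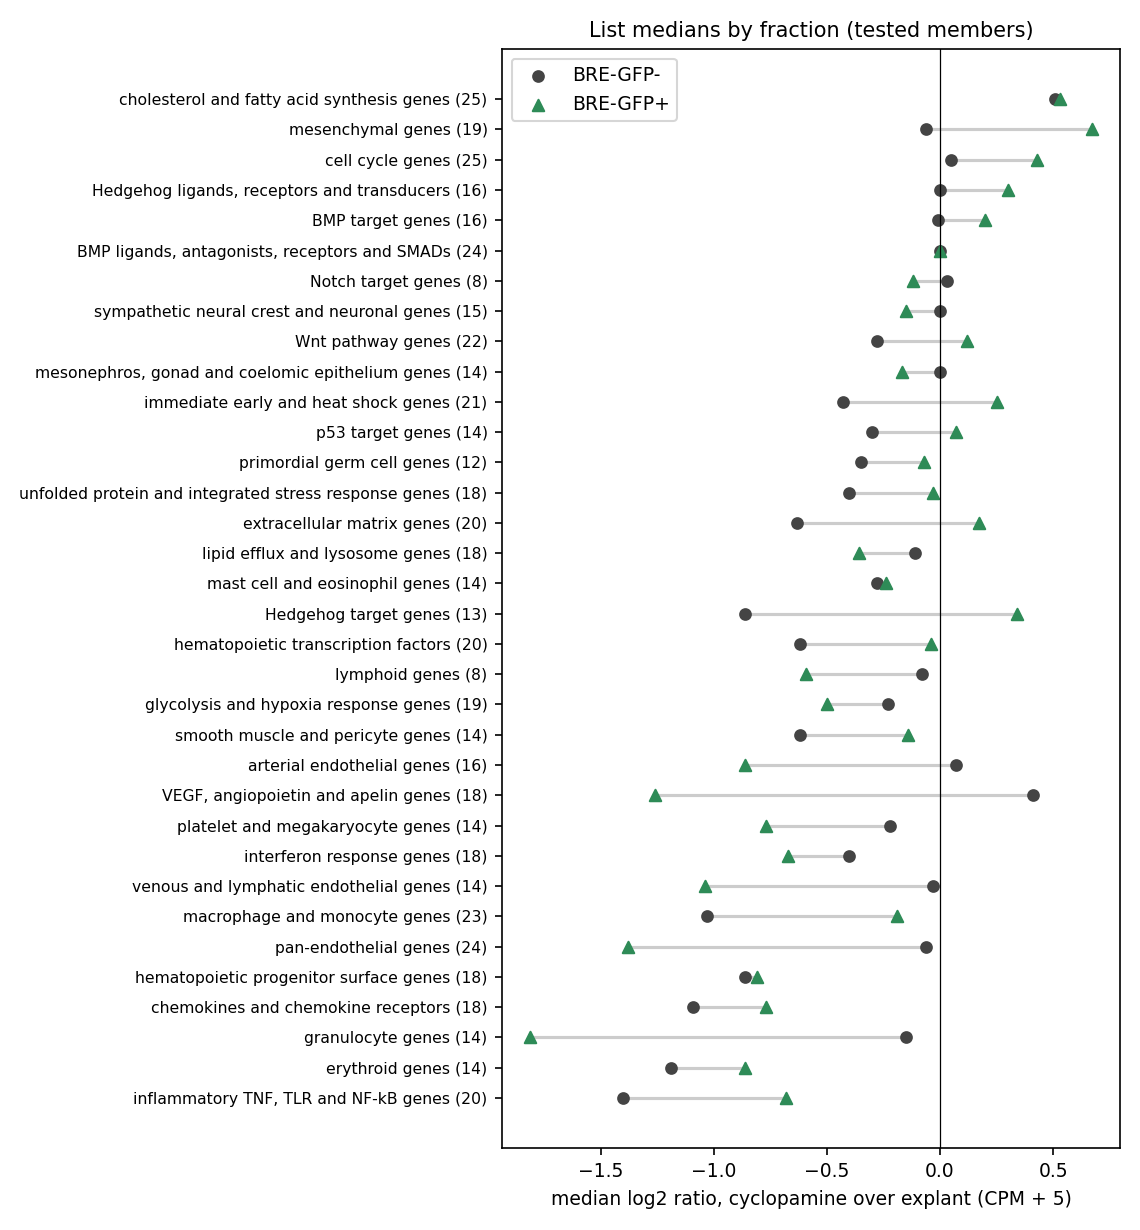
Median log2 ratio of cyclopamine over explant (CPM + 5, x axis) of each of the 34 gene lists, with the number of tested members in brackets, BRE-GFP negative EC as circles and BRE-GFP positive EC as triangles. Cholesterol and fatty acid synthesis genes are right of 0 in both fractions (0.51 and 0.53), inflammatory, erythroid, chemokine and progenitor surface genes are left of 0 in both, and the endothelial lists lie further left in the positive than in the negative fraction.

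Beyond the globins, 12 more genes were named as lower in both fractions. The genes were ranked by the ratio nearer to 0 of the 2 fractions among 6875 genes with enough counts, and their values are given as a description. Clec1a, a C-type lectin receptor of endothelium and myeloid cells (chromosome 6, 129426684 to 129452000), stood at 34.5 and 74.6 CPM without and 0 and 0.301 CPM with cyclopamine. Mogat2, a monoacylglycerol acyltransferase (chromosome 7, 99219084 to 99238611), had 20.4 and 25.9 CPM without and 0 counts in both libraries with it, at least 171-fold lower with both fractions pooled. These 2 genes were the ones called by limma-voom, each with an adjusted p of 0.0476, and edgeR gave unadjusted p-values of 0.00019 and 0.00014. Acvrl1, the endothelial BMP9 receptor ALK1 (chromosome 15, 101128522 to 101145336), stood at 28.8 and 88.6 CPM without and 0 and 16.1 CPM with cyclopamine. Ptprb, the endothelial phosphatase VE-PTP, stood at 23.6 and 138 CPM without and 0.39 and 30.1 CPM with it. Mmrn1, a platelet and endothelial matrix protein, stood at 65.8 and 75.2 CPM without and 0 and 8.36 CPM with it. Of these 3, Acvrl1 and Mmrn1 did not overlap between cultures, and Ptprb did, since its cyclopamine positive library exceeded its explant negative one. Il2rg, the common cytokine receptor chain, stood at 164 and 312 CPM without and 16 and 52.5 CPM with it. Alpl, Ccrl2, Trim16 and Ikzf2 completed the 15, with ratios from -3.64 to -2.02 over both fractions.

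The 15 genes ranked highest in both fractions were chosen by their ratios, and their values are a description. Chrdl1, which encodes a secreted BMP antagonist (chromosome X, 143285674 to 143394263), stood at 2.67 and 10.4 CPM without and 75.2 and 198 CPM with cyclopamine, against 6.46 and 8.68 CPM in fresh EC. Both cyclopamine libraries were several times above all 4 other EC libraries, with a log2 fold change of 4.48 ± 1.71 (SE; edgeR unadjusted p = 0.021). Aldh1a2, the retinoic acid synthesizing enzyme of embryonic mesoderm (chromosome 9, 71215789 to 71296243), stood at 18.1 and 18.3 CPM without and 138 and 87.3 CPM with it. Aldh1a2 had the lowest unadjusted p of the 15 higher genes named, 0.0019 in edgeR, with a log2 fold change of 2.55 ± 0.66 (SE), and DESeq2 gave it an adjusted p of 0.0011. Aebp1, a collagen-binding matrix protein, stood at 6.93 and 11.8 CPM without and 97.1 and 59.3 CPM with it. Pcolce2, an enhancer of procollagen processing, stood at 9.07 and 18 CPM without and 96.7 and 91.8 CPM with it. Both are matrix genes of fibroblasts, and both cyclopamine libraries exceeded both explant libraries. Pcsk6, a proprotein convertase, stood at 3.91 and 28.7 CPM without and 107 and 113 CPM with cyclopamine. Unc5c, a netrin receptor, stood at 12.1 and 44 CPM without and 85.7 and 163 CPM with it, and Ndn, the imprinted gene necdin, at 21 and 54.5 CPM without and 85.6 and 178 CPM with it. The others, Rlbp1, Cybrd1, St8sia2, Chml, Atp1b2, Hoxc10, Aldh1b1 and Oplah, had ratios from 1.57 to 3.10. Rlbp1 and Oplah had a fitted log2 fold change below 0 (-2.99 and -8.94) when the share of reads at no feature entered the fit.

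**Figure D5:**
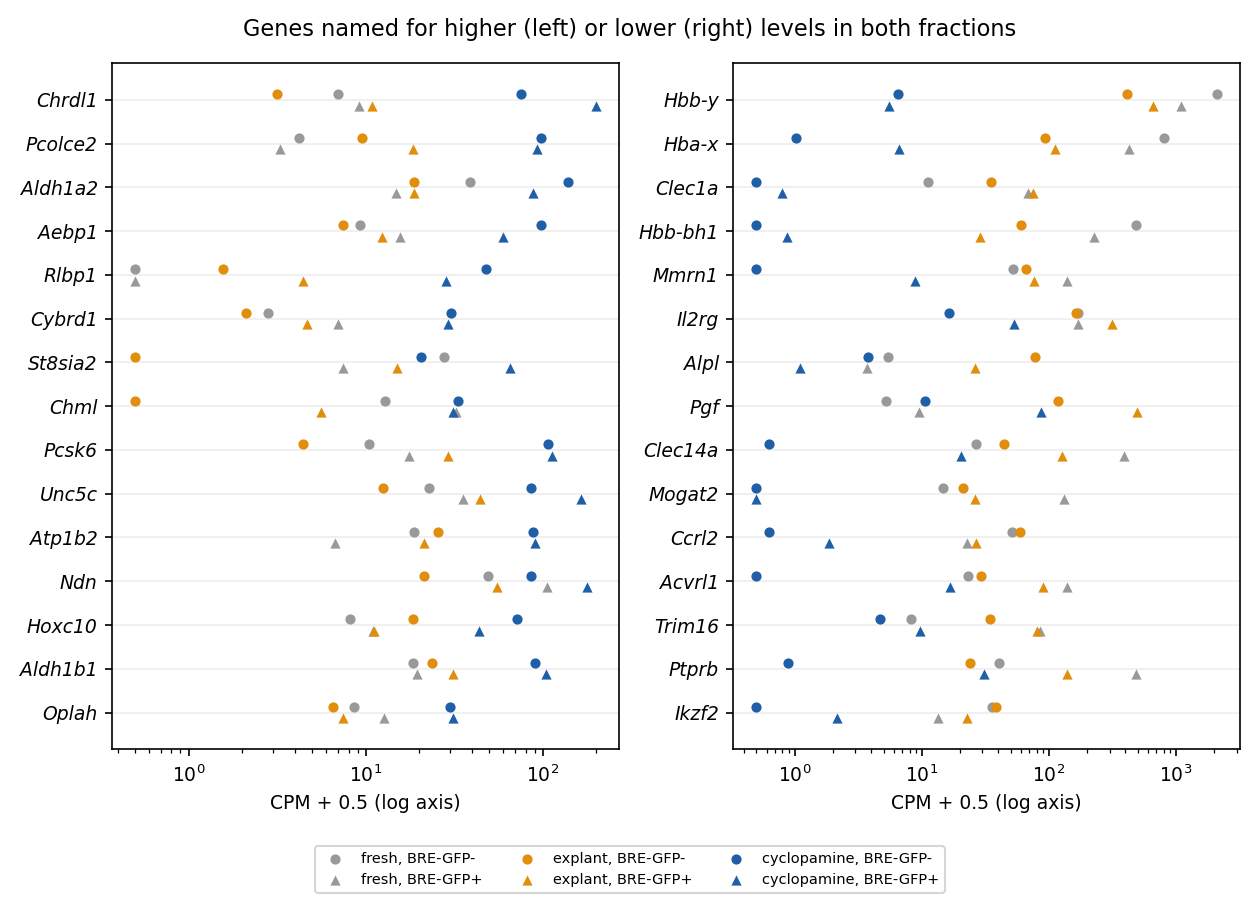
CPM + 0.5 on a log axis for the 15 genes named as higher (left) and the 15 named as lower (right) in both fractions, in the 6 EC libraries (colour for culture, shape for fraction). Blue symbols lie right of the orange ones of the same shape in the left panel and left of them in the right panel, which is how the genes were chosen.

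Mesenchymal marker genes differed little in the negative and more in the positive fraction. Of 19, 9 were higher and 2 lower in both fractions, with medians of -0.06 and 0.67, and 17 were higher in the positive fraction. There 7 were higher by more than 2-fold, against 907 of all 16231 tested genes. Pdgfra, a receptor of mesenchymal cells, stood at 414 and 106 CPM without and 498 and 242 CPM with cyclopamine. Col3a1, a fibrillar collagen, stood at 427 and 499.6 CPM without and 649 and 1059 CPM with it. In the positive fraction, where endothelial genes were lower, the summed mesenchymal level was 5031 CPM without and 7762 CPM with cyclopamine, while in the negative fraction it was 4886 and 4783 CPM, and the part of this in the endothelial values was not tested. Smooth muscle genes were not higher with them, with medians of -0.62 and -0.14, and Tagln stood at 58.8 and 138 CPM without and 2.34 and 44.4 CPM with it (edgeR unadjusted p = 0.011). Extracellular matrix genes had medians of -0.63 and 0.17. Among them the basement membrane collagens Col4a1 and Col4a2, made by endothelium, were higher in the negative and lower in the positive fraction, Col4a2 at 47.8 and 536 CPM without and 107 and 145 CPM with cyclopamine. In the list for mesonephros, gonad and coelomic epithelium, Wt1, Lhx9 and Gata4, transcription factors of the coelomic lining and early gonad, were the 3 of 14 that were higher in both. Gata4 stood at 0.355 and 13.8 CPM without and 77.1 and 31.7 CPM with it, and Wt1 at 59.4 and 64 CPM without and 227 and 93.9 CPM with it, with unadjusted p-values of 0.12 and 0.11 in edgeR. The epithelial genes Krt18, Cdh1, Epcam and Upk3b had ratios of 0 or below in both fractions.

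BMP signalling genes were mixed. Over 24 ligands, antagonists, receptors and SMADs, 7 were lower and 8 higher in both fractions, with medians of 0.00 in both. Among ligands, Bmp4 was lower in both, at 39.6 and 19.5 CPM without and 6.5 and 14.7 CPM with cyclopamine, and Bmp5 was higher in both, at 27.4 and 13.5 CPM without and 129.8 and 36 CPM with it. Of the type I receptors, Bmpr1a was higher in both, at 51.5 and 52.2 CPM without and 125 and 111 CPM with it, in contrast to Acvrl1 above. Bmpr2, the type II receptor, stood at 15.6 and 12.3 CPM without and 0 and 4.82 CPM with it. Smad1, a transducer of the signal, stood at 52.4 and 164 CPM without and 15.2 and 42.9 CPM with it (log2 fold change -1.88 ± 0.78 (SE); edgeR unadjusted p = 0.031). The target genes as a list had medians of -0.01 and 0.20, with 0 of 16 at an unadjusted p under 0.05 (edgeR). Id1 stood at 39.5 and 52.9 CPM without and 41.2 and 60.7 CPM with cyclopamine, with a fitted log2 fold change of 0.13 ± 0.91 (SE), an error too wide to exclude a change in either direction.

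Sterol and lipid synthesis was the list with the most members higher in both fractions. Of 25 tested genes, 15 were higher and 1 lower in both, with medians of 0.51 and 0.53, against 17.1% higher and 27.4% lower over all tested genes. Both cyclopamine libraries lay above both explant libraries for 14, against 10.6% over all tested genes. Fasn, fatty acid synthase (chromosome 11, 120805958 to 120825166), stood at 72 and 44.6 CPM without and 139 and 160.5 CPM with cyclopamine (log2 fold change 1.33 ± 0.60 (SE); edgeR unadjusted p = 0.046), the 1 gene of the list under that level. Cyp51, the lanosterol demethylase, stood at 157 and 134 CPM without and 273 and 290.1 CPM with it. Insig1, a sterol-regulated brake on the pathway, stood at 107 and 40.1 CPM without and 188 and 110.3 CPM with it. Each of these 3 had its 2 cyclopamine libraries above its 2 explant libraries, by log2 ratios of 0.77 to 0.91 in the negative and 1.08 to 1.74 in the positive fraction. Abca1 and Abcg1, the sterol exporters of the list for efflux and lysosome, were lower in both fractions, Abcg1 at 184 and 254 CPM without and 166 and 119 CPM with cyclopamine.

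Cell cycle genes had medians of 0.05 and 0.43, with 11 of 25 higher and 3 lower in both fractions. Top2a, the topoisomerase of dividing cells, stood at 704 and 355 CPM without and 1078 and 622 CPM with cyclopamine. Glycolysis and hypoxia genes were lower in both fractions for 10 of 19 and higher for 1, with medians of -0.23 and -0.50. Pfkp, the platelet-type phosphofructokinase, stood at 113 and 219 CPM without and 1.43 and 52.2 CPM with it (log2 fold change -3.74 ± 0.92 (SE); edgeR unadjusted p = 0.0013). Car9, a carbonic anhydrase induced by hypoxia, had 1.07 and 15 CPM without and 0 counts in both libraries with cyclopamine. With both fractions pooled it was at least 78.1-fold lower, a bound that rests mostly on the positive fraction. Ldha and Aldoa differed far less, Ldha at 728 and 1195 CPM without and 652 and 843 CPM with it. Gapdh, Eno1 and Pgam1 were at or under 3.90 CPM, which the loss of reads shared with pseudogene copies makes uncertain.

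The cyclopamine difference in EC was set against that in the other populations by testing the EC effect against the mean of the HPSC and MC effects. Of 16231 genes, 0 passed (0%), with the lowest adjusted p at 1.0 and 262 genes at an unadjusted p under 0.05 in edgeR. DESeq2 called 26, 12 of them with a more positive effect in EC and 14 with a more negative one, and edgeR without the EC cyclopamine positive library called 153, all with a more negative effect in EC. Among the 6 genes of lowest p were Hbb-y, Clec1a and Mogat2, all lower in EC. Mogat2 was lower in the other populations too, with fitted log2 fold changes of -4.06 in HPSC and -2.07 in MC against -11.66 in EC. The EC value comes from 0 counts in both cyclopamine libraries, so its size is uncertain. It was -10.44 in DESeq2 and -8.47 in limma-voom. Clec1a had -1.83 in HPSC and -1.25 in MC against -8.89 in EC, and was at or under 1.34 CPM in MC. Hbb-y in HPSC stood at 7565 and 7245 CPM without and 9904 and 5719 CPM with cyclopamine, and in MC at 12110 and 24740 CPM without and 2019 and 2242 CPM with it. Its fitted log2 fold change was thus -0.08 in HPSC and -3.23 in MC against -6.63 in EC, and the edgeR unadjusted p of the difference was 0.0031. Lrrc17 and Sema3a were also among them. Sema3a, a guidance factor, was higher in EC, at 49.6 and 34.2 CPM without and 263 and 79.8 CPM with cyclopamine, while in HPSC it stood at 21.3 and 22.6 CPM without and 0.754 and 1.64 CPM with it (edgeR unadjusted p of the difference 0.0025). Lrrc17 hardly differed in EC, with ratios of 0.34 and 0.50, and was lower in HPSC, at 18.8 and 17.4 CPM without and 2.26 and 2.37 CPM with cyclopamine. The HPSC cyclopamine negative library was the smallest of the series, with 3041249 gene counts. There 3 counts are 1.13 CPM, so its low values for Sema3a and Lrrc17 rest on few reads. Aldh1a2 was higher with cyclopamine in HPSC too, at 7.55 and 8.08 CPM without and 50.2 and 35.3 CPM with it. Gli1 in MC stood at 33.1 and 28 CPM without and 25.4 and 19.5 CPM with it. Hhip in MC stood at 39.2 and 30.9 CPM without and 14.5 and 5.38 CPM with it, and Foxf2 at 23.5 and 12.4 CPM without and 8.16 and 0.317 CPM with it. Ptch1 in MC was lower in the negative and higher in the positive fraction, at 41.8 and 12.9 CPM without and 31.2 and 26 CPM with it.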

How the data were processed

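RNA-seq libraries were made with the SMARTER protocol from mirVana RNA, per the labels' protocols. The deposited tables hold whole-number read counts per gene symbol, not normalized by the authors. TopHat, Cufflinks, HTSeq and mm10 are named in the submitters' processing notes, while for versions, annotation and strand setting the sources used here give nothing. Lines naming no gene were left out of library sizes (reads at no feature were 24.6 to 49.4% of once-placed reads in the 4 libraries).

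Counts were fitted with edgeR 4.0.16 (quasi-likelihood, TMM, Benjamini-Hochberg) on all 18 libraries, with 6 blocks of population and fraction and a culture effect for each population, leaving 6 residual degrees of freedom (common biological coefficient of variation 0.88). Tested were 16231 of 21881 genes, those reaching 0.796 CPM, which is 10 counts in a library of median size, in 3 or more libraries. DESeq2 1.42.0, limma-voom 3.58.1, other scalings, filters, library sets and covariates were alternatives. Log2 ratios used CPM + 5. The fit was tested on simulated data. From genes with at least 50 counts and 20 CPM in both libraries of 1 culture, 15 each way were named by the ratio nearer to 0 of the 2 fractions. Those with opposite ratios, 6 each way, needed that minimum in only 1 of the 4 libraries. Another 6 had the lowest p of the difference between populations, with a mean of at least 10 CPM in 1 population and culture. Members of 34 lists (611 symbols) were also named. Members and lists were chosen with earlier results of these data known. Some genes that these rules name are not reported here. No list was tested as a set. Counting intervals were not given for CPM, and bounds against 0 counts cover counting error only. These bounds pool the counts of both fractions and do not hold for each fraction by itself. Predicted genes and small RNAs were skipped. Coordinates and promoter windows are from RefSeq on GRCm38.p6, the assembly mm10 names.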

Additional observations from a re-analysis of the deposited data

Results flagged for a closer look

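With 1 library per combination no group had enough samples to look for outlying ones. The following 11 genes had opposite directions of the cyclopamine difference in the 2 BRE-GFP fractions, and the difference between fractions was not tested. It is given as the log2 ratio in the negative minus that in the positive fraction. Higher in the negative and lower in the positive fraction were Fam55d (7.73), Dusp10 (6.34), a phosphatase of stress kinases, Apln (5.70), Chst1 (5.66) and Upp1 (5.63). Fam55d stood at 0 and 39.4 CPM without and 138 and 0.979 CPM with cyclopamine (negative, then positive fraction). Apln stood at 1.60 and 83 CPM without and 49.4 and 8.96 CPM with it. Lower in the negative and higher in the positive fraction were Trpv4 (-6.92), a calcium channel, Pak3 (-6.16), Matn4 (-6.03), Tgfa (-5.78), Aacs (-5.63) and Man2b2 (-4.21). Trpv4 stood at 90.1 and 19.6 CPM without and 0.26 and 159 CPM with cyclopamine. In 5 of the 6 genes that were lower in the negative fraction, the cyclopamine negative library was under 3 CPM, and it was also the EC library with the fewest detected genes (11006), whose part in these values was not tested.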

How the results depend on the processing

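The count of genes called between cyclopamine and explant EC was 0 in edgeR, also with DESeq2 size factors, total counts, a filter in at least 6 libraries, no fraction block, or the share of reads at no feature as covariate. It was 134 with DESeq2, 2 with limma-voom, 2 with no filter on low counts, and 1 with the 6 or the 4 EC libraries alone. Leaving out 1 library gave 0 to 185, with 0 for each except the EC cyclopamine positive library. Without that library, 185 genes (1 higher) rested on the cyclopamine negative library, a lone sample assumed to vary like the others. The count of genes with another effect in EC than in HPSC and MC was 26 with DESeq2 and 0 to 153 with 1 library left out, again 153 without EC cyclopamine positive, and 0 in the other alternatives. Genes over 2-fold higher in both fractions numbered 278 with a pseudocount of 1 and 27 with 20 CPM, and genes over 2-fold lower in both 1181 and 48. Of 462 refits of 33 named genes, 2 changed sign (Rlbp1 to -2.99 and Oplah to -8.94, both with the covariate). Of 340 recomputed list medians, 61 moved by more than the SD between fractions and 2 changed sign with at least 0.1 on each side. That SD is of each list's own 2 medians, so it is wide where the fractions differ and near 0 where they do not. The count of 61 is therefore not a measure of stability. No paired analysis was possible because the labels give no replicate numbers, and the BRE-GFP fraction is already a block. Depth limits low genes: 3 counts are 0.533 and 0.202 CPM in the explant and 0.39 and 0.226 CPM in the cyclopamine libraries.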

Other observations

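Stress, signalling and lineage lists outside the comparisons above had these values. Immediate early and heat shock genes had median log2 ratios of -0.43 in the negative and 0.25 in the positive fraction. Egr1, an early response factor, was higher with cyclopamine in both, at 164 and 211 CPM without and 345 and 385 CPM with it (negative, then positive fraction). Unfolded protein and integrated stress response genes had medians of -0.40 and -0.03. Slc7a11, the cystine transporter, stood at 59.7 and 13.6 CPM without and 1.69 and 0.452 CPM with cyclopamine (edgeR unadjusted p = 0.015), near the 1.42 and 0.566 CPM of fresh EC. Medians of p53 targets were -0.30 and 0.07, and Cdkn1a, the cell cycle inhibitor p21, was lower in both fractions, at 59.4 and 70.3 CPM without and 10.7 and 28.4 CPM with it. Interferon response genes had medians of -0.40 and -0.67, with 8 of 18 lower and 1 higher in both. Usp18, which dampens interferon signalling, stood at 49.8 and 75.8 CPM without and 1.04 and 29.9 CPM with cyclopamine.

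Wnt pathway genes had medians of -0.28 and 0.12. Wif1, a secreted Wnt inhibitor, was higher in both fractions, at 13.9 and 17.4 CPM without and 40.2 and 82.4 CPM with cyclopamine, and Fzd6, a Wnt receptor, was lower in both, at 31.3 and 81 CPM without and 2.73 and 28.8 CPM with it (edgeR unadjusted p = 0.032). Notch targets had medians of 0.03 and -0.12, and Heyl stood at 133 and 98.6 CPM without and 134 and 105 CPM with it. Lipid efflux and lysosome genes had medians of -0.11 and -0.36, lymphoid genes -0.08 and -0.59, sympathetic and neuronal genes 0.00 and -0.15, the mesonephros and gonad list 0.00 and -0.17, and primordial germ cell genes -0.35 and -0.07. The germ cell genes Dazl and Ddx4 were abundant in the negative fraction of both cultures, Dazl at 125 CPM without and 119 CPM with cyclopamine there and 3.9 and 12.7 CPM in the positive fraction.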
